A study of Mus musculus with 8 samples.

Results

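Cholecystokinin, secretin and gastrin are peptide hormones of the gut, encoded by Cck, Sct and Gast. Their receptors are encoded by Cckar, Cckbr and Sctr. These 6 genes, of 36095 named on the array, were chosen as every non-control probe that carried 1 of the 6 symbols, which gave 10 probes. A probe was tested when it was well above background on at least 4 of 8 arrays, and 8 of the 10 probes, standing for 5 of the 6 genes, met this. Neither probe of Cckbr did. Cck and Sct were lower in the arrays labelled mutant, while the probes of Gast, Cckar and Sctr did not pass the test.

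The arrays measured RNA of the small intestine of E18.5 mice, shortly before birth, from 4 controls and 4 samples labelled Rfx6 fl/fl Ngn3-cre. Controls 1, 3 and 4 were Rfx6 fl/+, control 2 was Rfx6 fl/fl, and the labels mention Cre for mutants alone, so Cre and the loss of Rfx6 cannot be told apart. Cre was driven by Ngn3, a gene of endocrine progenitors, so that deletion was aimed at endocrine cells, while RNA came from tissue in which these cells are a small minority. Rfx6 is a transcription factor of endocrine cells, and which of its exons were floxed is not given in the sources used here. The description fields of mutants 2, 3 and 4 name Rfx7, Rfx8 and Rfx9, which were read as entry errors beside titles that say Rfx6.

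Cholecystokinin is secreted by I cells and secretin by S cells of the upper small intestine, in response to fat, protein and acid from the stomach, and together they drive bile flow and the release of pancreatic enzymes and bicarbonate. Gastrin comes mainly from G cells of the stomach and drives acid secretion. Cholecystokinin and gastrin share the same amidated tail and a pair of receptors that signal mainly through calcium, whereas secretin acts through a receptor that raises cyclic AMP.

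The level of a probe is given as the log2 of its processed intensity minus the log2 of the 75th percentile of its array, so that 0 is the 75th percentile and each unit is a doubling. Levels compare 1 probe across arrays and do not rank genes against each other, because probes bind with different strength. That percentile ranged from 788 to 1027 intensity units, and the share of probes well above background from 59.7% to 69.9%. Mutant 1 stood apart, with a mean correlation across genes of 0.975 to the other arrays, against 0.989 to 0.990 for the rest. The Rfx6 probe did not separate the groups (-3.48 to -2.93 in controls; -5.52, -3.37, -3.02 and -3.02 in mutants 1 to 4), so it gives no check of the labels, and the groups are described as labelled.

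Of 25330 genes tested with limma, 15 passed a Benjamini-Hochberg adjusted p of 0.05, which is 0.0592% of them. Of these 14 were lower in mutants, which is 0.0553%. An unadjusted limma p under 0.05 was found for 1353 of the 25330 genes. Of the 5 hormone and receptor genes tested, 2 passed, Cck and Sct, both lower. Every mutant was below every control for these 2 genes, as it was for 412 of all genes (1.63%). Because the RNA came from a mixed tissue, fewer cells that make a hormone and less RNA per cell cannot be told apart here.

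Cck had the largest difference of the 5 tested genes. Its probe (chr9:121398943-121399002, minus strand, mm9; position 625 of the transcript) had levels of 4.54, 4.53, 4.34 and 4.14 in controls 1 to 4. In mutants 1 to 4 it stood at 2.16, 1.80, 1.83 and 1.81. The groups were far apart, and mutant 1 was the highest of its group. In processed intensity this was 17037 to 23596 units in controls and 3070 to 3605 in mutants, so that the hormone was still well above background on every mutant array. The mean fell from 4.39 ± 0.19 (SD, n = 4) to 1.90 ± 0.17 (SD, n = 4), a difference of -2.49 (SE 0.13, 95% interval -2.78 to -2.20; limma adjusted p = 9.17e-05). The mutant level was therefore 17.8% of the control level (95% interval 14.5% to 21.8%), or 5.61-fold lower. By p-value Cck ranked 6 among the 25330 genes. Without mutant 1 the difference was -2.57 (limma adjusted p = 0.000125).

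Sct fell less. Its probe (chr7:148464238-148464297, minus strand, mm9; position 446) had levels of 6.39, 6.46, 6.34 and 6.47 in controls 1 to 4. In mutants 1 to 4 the levels were 5.64, 5.52, 5.17 and 5.35. Controls lay within a narrow band, mutants were spread more widely, and the groups did not overlap. The processed intensity was 81064 to 90344 units in controls and 35305 to 42011 in mutants, so the probe stayed far above background in mutants. The mean fell from 6.42 ± 0.06 (SD, n = 4) to 5.42 ± 0.20 (SD, n = 4), a difference of -0.997 (SE 0.11, 95% interval -1.26 to -0.74; limma adjusted p = 0.0290). This left 50.1% of the control level (95% interval 41.8% to 60.0%). The call for Sct sat close to the threshold: the limma adjusted p was 0.0132 without mutant 1, and 0.0642 to 0.182 without any other single array (controls 1, 2, 3 and 4 and mutants 2, 3 and 4), while the difference stayed between -1.07 and -0.91.

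**Figure D1:**
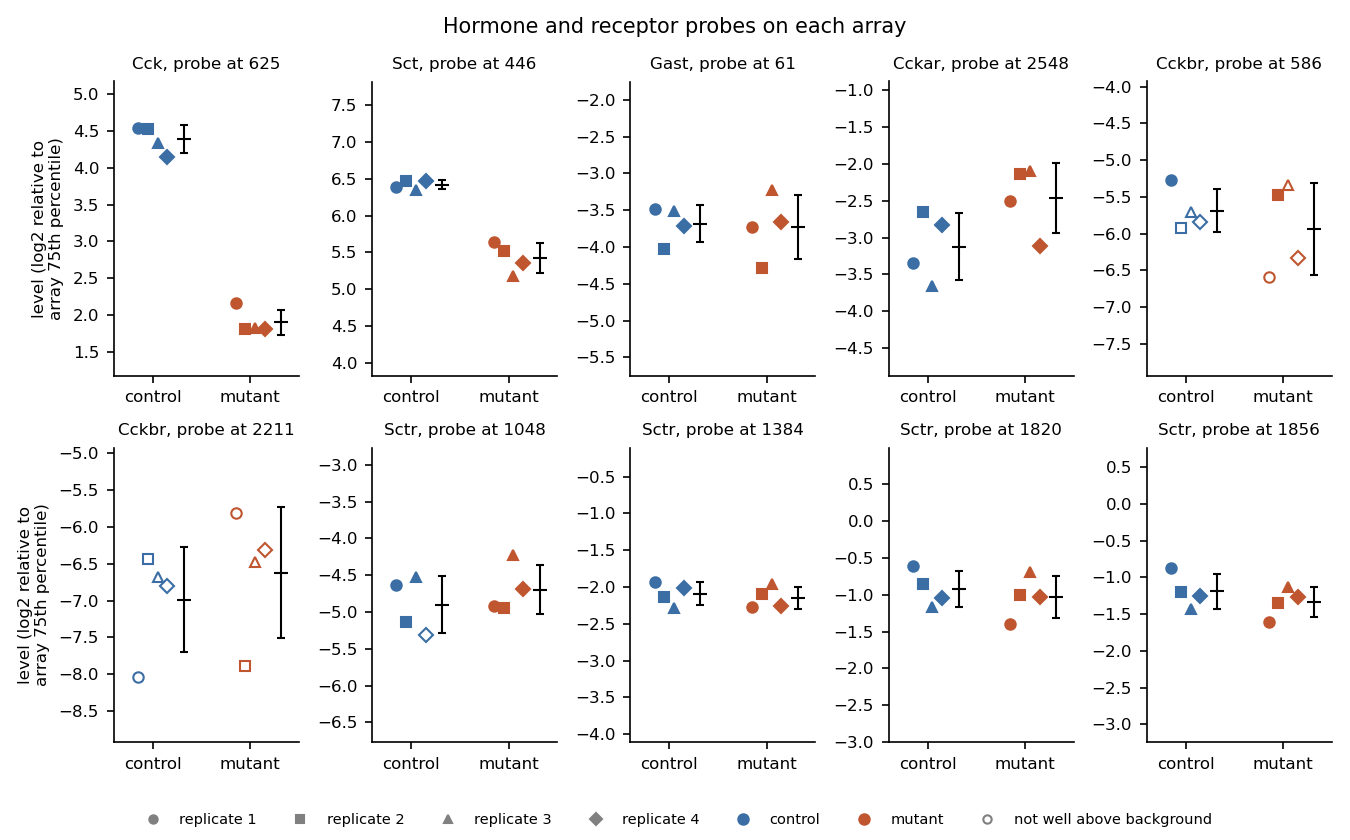
Level of each of the 10 probes on each array, as log2 relative to that array's 75th percentile, with 1 panel per probe headed by its position in the transcript. Symbols mark the replicates, open symbols mark probes not well above background, and bars show the mean and SD (n = 4). The mutants lie below all controls for Cck (1.80 to 2.16 against 4.14 to 4.54) and Sct (5.17 to 5.64 against 6.34 to 6.47), and the groups overlap in every other panel.

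Gast was low on its probe and did not pass the test. Its probe (chr11:100197806-100197865, plus strand, mm9; position 61) was well above background on all 8 arrays. Levels were -3.48, -4.03, -3.52 and -3.71 in controls 1 to 4 and -3.73, -4.28, -3.22 and -3.66 in mutants 1 to 4. The lowest and the highest values were both in mutants, and the groups overlapped. The difference was -0.04 (SE 0.22, 95% interval -0.54 to 0.47; limma adjusted p = 0.971). The interval spans a fall to 68.6% of the control level and a rise to 138% of it, so a change of the size seen for Cck or Sct lies outside it. Mutant 3, the array with the highest Gast level, also had the highest summed level of stomach markers. That sum was 12.7 times the 75th percentile, carried by Tff2 and Gkn3, against 0.458 to 0.674 on the other 7 arrays. Without mutant 3 the Gast difference was -0.21 (SE 0.20). The part of stomach RNA in the Gast values was not tested.

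The signals of the 3 hormone probes therefore changed unequally. Whether these probes, which differ widely in intensity, respond alike to a change in RNA was not tested. The Cck signal divided by the Sct signal of the same array, a ratio that does not depend on how arrays are scaled, had a log2 mean of -2.03 ± 0.21 among controls and of -3.52 ± 0.15 among mutants (SD, n = 4 each). All 4 mutants were below all 4 controls, and the ratio was 2.81-fold lower (exact permutation test over arrays, two-sided, p = 0.0286, which is the smallest that 70 regroupings can give). The ratio of Cck to Gast fell from 8.07 to 5.62, or 5.47-fold, and that of Sct to Gast fell by 0.96 on the log2 scale, or 1.94-fold. Both had the same exact permutation p of 0.0286, and 0.0286 after adjustment over the 3 ratios. With quantile normalisation, which changes each probe by its rank, the exact permutation p of the Sct to Gast ratio was 0.0571, with a difference of -1.06.

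**Figure D2:**
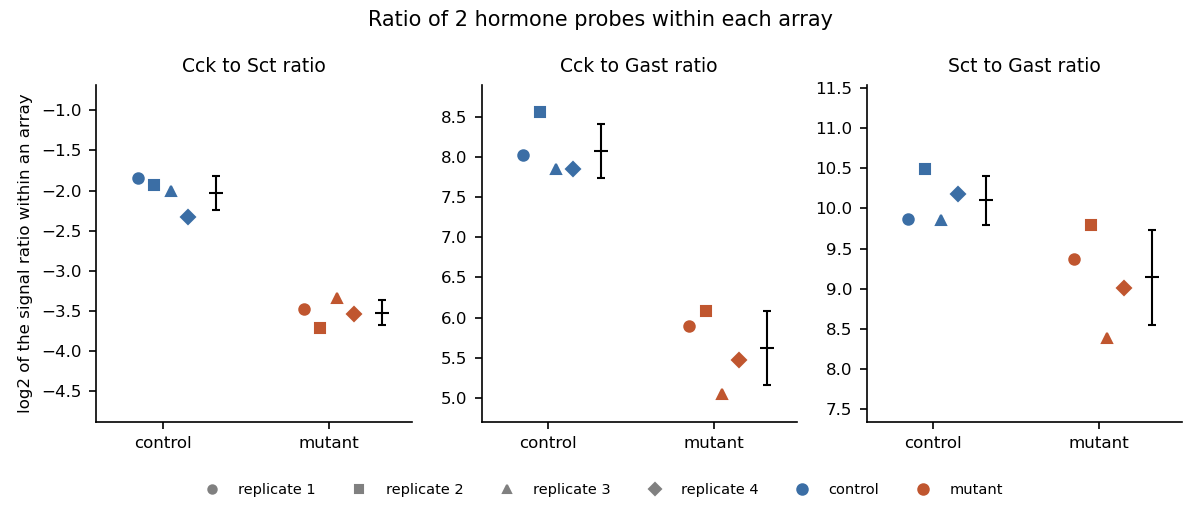
Log2 ratio of the signals of a pair of hormone probes within each array, 1 panel per pair, with replicates as symbols and the mean and SD (n = 4) as bars. The Cck to Sct ratio lies between -2.33 and -1.84 in controls and between -3.71 and -3.34 in mutants, and the groups are separate in all 3 panels.

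The sequence upstream of the start sites of the 3 hormones, the DNA on which transcription factors of endocrine cells could act, is printed here because 2 of the 3 fell. RefSeq promoters (GRCm38.p6, 250 bases before to 50 after the start) held Cck, Sct, Gast and Cckbr, 4 of the 6 genes. The 250 bases before each start are shown on the gene's own strand, with matches to 5 searched motifs in capitals. Their positions are chr9:121495695-121495944 (Cck, minus strand), chr7:141279134-141279383 (Sct, minus strand) and chr11:100334157-100334406 (Gast, plus strand).
Cck: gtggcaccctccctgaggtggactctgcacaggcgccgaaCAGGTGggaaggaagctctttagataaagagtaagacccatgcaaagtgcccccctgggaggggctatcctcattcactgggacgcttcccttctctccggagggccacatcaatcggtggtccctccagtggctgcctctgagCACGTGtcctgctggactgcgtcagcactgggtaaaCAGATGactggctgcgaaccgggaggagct
Sct: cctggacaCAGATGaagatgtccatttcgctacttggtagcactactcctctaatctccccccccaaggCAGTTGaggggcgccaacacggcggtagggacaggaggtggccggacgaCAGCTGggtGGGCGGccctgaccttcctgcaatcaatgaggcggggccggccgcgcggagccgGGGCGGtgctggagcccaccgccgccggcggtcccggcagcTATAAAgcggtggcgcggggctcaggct
Gast: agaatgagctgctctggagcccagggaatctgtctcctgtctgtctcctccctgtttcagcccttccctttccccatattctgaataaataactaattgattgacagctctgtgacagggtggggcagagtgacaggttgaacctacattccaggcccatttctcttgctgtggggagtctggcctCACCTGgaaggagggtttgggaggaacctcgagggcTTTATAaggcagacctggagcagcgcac

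The motifs were searched on both strands over the whole 300 bases, and they were chosen with the expression values known. The E-box CANNTG, the sequence bound by bHLH factors such as Neurog3 and Neurod1, matched, counted in bases from the start, at -210, -66 and -30 in Cck, at -242, -181, -132 and 11 in Sct and at -64 in Gast. It occurs in 72.3% of 32851 promoters of that length, so a match is common. The GC box GGGCGG, found in 35.7% of promoters, matched at -123 and -69 in Sct. The TATA box TATAAA, found in 13.6%, matched at -28 in Sct and, on the minus strand, at -28 in Gast. The letters GTTGCC, part of the motif bound by RFX factors and found in 12.5% of promoters, and the cyclic AMP response element TGACGTCA, found in 1.79%, were in none of these 4 windows. Only the letters given were searched, so variants of these motifs were not covered. The windows of Sct, Cck, Cckbr and Gast held 66.7%, 59.3%, 57% and 54% G or C, against a median of 52.7% over all promoters.

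Of the 3 receptor genes 2 were tested, Cckar and Sctr. Neither passed in limma, and Cckar had an unadjusted p under 0.05, as did 1353 of all 25330 genes tested. The 60-base probes that lie within the first 1500 bases of a receptor transcript or of the Gast transcript are printed to show the stretches they measure. The gene-level tests of Cckar and Sctr rest on other probes, at positions 2548 and 1820.
Gast, position 61: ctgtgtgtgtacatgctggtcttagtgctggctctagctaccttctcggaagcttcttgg
Cckbr, position 586: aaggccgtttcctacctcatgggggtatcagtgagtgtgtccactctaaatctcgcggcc
Sctr, position 1048: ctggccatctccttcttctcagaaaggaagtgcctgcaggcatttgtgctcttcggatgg
Sctr, position 1384: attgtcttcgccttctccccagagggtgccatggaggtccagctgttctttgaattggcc

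Cckar, the receptor that prefers cholecystokinin over gastrin and that mediates gallbladder contraction, had higher levels in 3 of 4 mutants than in any control and did not pass the test. Its probe (chr5:54090045-54090104, minus strand, mm9; position 2548) had levels of -3.34, -2.65, -3.66 and -2.83 in controls 1 to 4. In mutants 1 to 4 the levels were -2.50, -2.13, -2.10 and -3.12. The probe was well above background on all 8 arrays, mutants 1 to 3 were above every control, and mutant 4 lay within the control range. The difference was 0.66 (SE 0.29, 95% interval 0.01 to 1.31; limma adjusted p = 0.821). Under the other 20 settings tried it lay between 0.39 and 0.88 and passed in none. Pancreatic acinar cells also express this receptor in mouse. None of their markers passed the limma test, and 8 of 9 tested had an unadjusted p under 0.05, beside 1353 of all 25330 genes. Of 13 acinar markers 12 were on the array, and their sum includes those not tested. It was 1.28 to 2.55 times the 75th percentile in controls and 5.94, 3.25, 7.43 and 15.4 in mutants 1 to 4. Mutant 4, with the highest acinar sum, had the lowest Cckar level of the mutants. Amy2a5 weighed most in the sum of mutant 4, at a level of 3.29 there against 0.16 to 1.83 on mutants 1 to 3. The part of acinar RNA in the Cckar values was not tested.

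Cckbr, which binds gastrin and cholecystokinin about equally and serves on acid-secreting and histamine-releasing cells of the stomach, was at the edge of detection. Its probe at position 586 (chr7:112582327-112582546, plus strand, mm9, where 60 bases of transcript span 220 bases of genome) was well above background only on control 1, at -5.27, and on mutant 2, at -5.47. The other 6 arrays read -5.93, -5.71 and -5.85 in controls 2 to 4 and -6.59, -5.34 and -6.34 in mutants 1, 3 and 4, not well above background. The second probe, at position 2211 (chr7:112584581-112584640), was not well above background on any array, with -8.03 to -6.44 in controls and -7.89 to -5.81 in mutants. With both groups near background neither a fold nor a test is given for Cckbr.

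Sctr, the class B receptor through which secretin stimulates ductal bicarbonate secretion, was measured by 4 probes on the plus strand of chromosome 1 in mm9. The brightest, at position 1820 (chr1:121960008-121960067), read -0.61, -0.86, -1.16 and -1.04 in controls 1 to 4 and -1.39, -1.01, -0.69 and -1.03 in mutants 1 to 4. Mutant 1 was the lowest array and control 1 the highest, with the others overlapping. The probe at 1856 (chr1:121960044-121960103), which shares 24 bases with it, read -0.87, -1.20, -1.43 and -1.25 in controls and -1.61, -1.35, -1.13 and -1.26 in mutants. These neighbours had nearly the same order of arrays. The probe at 1384 (chr1:121953023-121953082) read -1.93, -2.14, -2.29 and -2.01 in controls and -2.27, -2.10, -1.96 and -2.25 in mutants. The probe at 1048 (chr1:121943329-121943388) was the dimmest, at -4.63, -5.13, -4.52 and -5.31 in controls, the last not well above background, and at -4.92, -4.95, -4.23 and -4.68 in mutants. None of the 4 separated the groups.

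No Sctr probe passed the test. At position 1820 the difference was -0.11 (SE 0.17, 95% interval -0.51 to 0.28; limma adjusted p = 0.868 in the fit of 1 probe per gene). Over all 35471 probes, of which 0.0423% passed, the differences were 0.20 (SE 0.23), -0.05 (SE 0.12), -0.11 (SE 0.17) and -0.15 (SE 0.15) for the probes at 1048, 1384, 1820 and 1856, with limma adjusted p of 0.828 to 0.913. The interval at 1820 runs from 70.4% to 122% of the control level. The 3 probes from 1384 on varied together over the 8 arrays (Pearson r 0.805 to 0.952), whereas the dim probe at 1048 followed them less (0.0882 to 0.354). Mutants minus controls was -0.47 at position 1820 on row 1 of the slide and 0.24 on row 2, so the sign differed between rows.

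**Figure D3:**
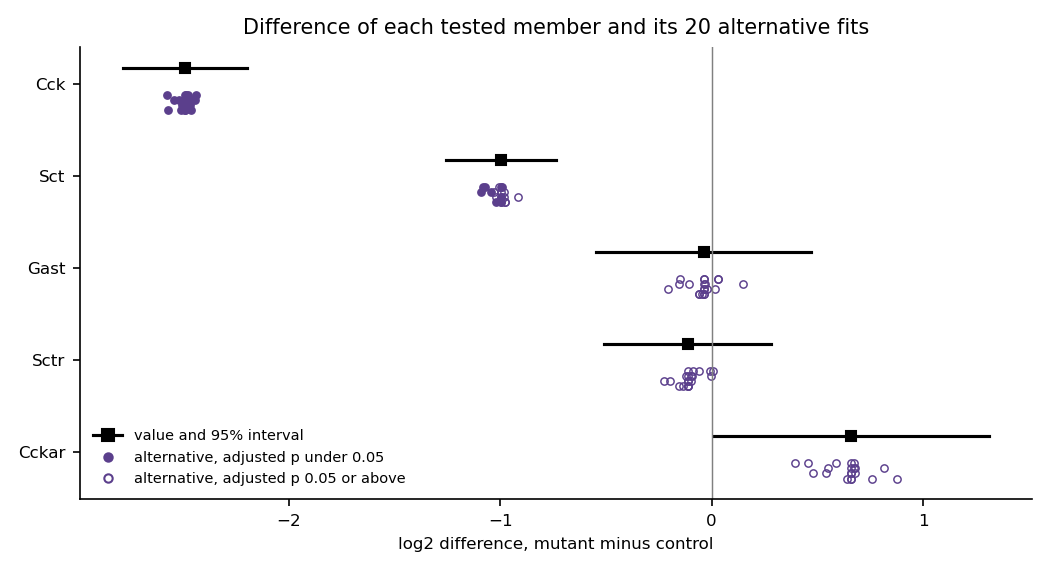
Difference of each of the 5 tested genes, mutant minus control on the log2 scale, with the value and its 95% interval as black squares and lines, and 20 alternative fits as points, filled where the adjusted p was under 0.05. Cck stays between -2.57 and -2.44 with every point filled, Sct between -1.09 and -0.91 with 10 of 20 filled, and Gast, Sctr and Cckar have no filled point.

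Within groups, the hormones and receptors did not vary as a set. Over the deviations of the 8 arrays from their group means, Pearson r was 0.387 between Cck and Sct, -0.696 between Sct and Gast and -0.654 between Sct and Sctr, and it lay between -0.352 and 0.297 for the other 7 pairs. These are descriptions over 8 arrays that share a scaling. Over the levels themselves, among the tested genes most like Cck were Nts (r = 0.995), Ghrl (0.994), Gip (0.988) and Gcg (0.985). They encode the hormones neurotensin, ghrelin, GIP and proglucagon. The genes most like Sct were Scg2 (0.976), Ghrl (0.975), P4ha1 (0.974), Cck (0.972) and Gfra3 (0.971). For Cck and Sct such an r mostly reflects that the groups lie apart in both genes. Ghrl fell by 4.86 on the log2 scale (limma adjusted p = 4.79e-06) and Nts fell by 3.98 (4.62e-06), both more than Cck, whereas P4ha1 had a difference of only -0.45 (SE 0.08, limma adjusted p = 0.247).

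Gast, Cckar and Sctr had other neighbours. The genes closest in level to Gast were Hsf4 (r = 0.911), Olfr635 (0.910) and Ano7 (0.886), those closest to Cckar were Trp53 (0.932), Minar1 (0.931) and Igfbp2 (0.910), and those closest to Sctr were Lce1c (0.947), Ppargc1a (0.942) and BC052688 (0.936). None of these 9 genes passed the limma test (adjusted p 0.821 to 0.990). Among the genes of the lists below, the closest by deviation from the group mean were Adcy3 (0.860), Tpst2 (0.783) and Ghrh (0.754) for Cck, and Crhr2 (0.952), Ret (0.873) and Dbi (0.857) for Sct. For Gast they were Rbpjl (0.862), Gip (0.854) and Hbb-bh1 (0.738), for Cckar Pam (0.786), Scg3 (0.774) and Gkn1 (0.771), and for Sctr Isl1 (0.879), Qpct (0.788) and Plcb4 (0.769). Each of these genes was picked for its r among many, so the size of r is in part a result of that choice.

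Genes that act with these hormones were read from 6 lists of 88 genes, of which 82 were tested. Of these 5 passed, all lower in mutants. Among the 5, Isl1 met the filter through the controls alone, and Gip through 4 controls and 1 mutant array. The median difference of the 82 was 0.06, beside 0.03 for all genes tested. The counts follow in the order of the path from gene to hormone to receptor.

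Among 19 transcription factors named for cells that make cholecystokinin, secretin or gastrin, 18 were tested (not Pax6), and their median difference was -0.01. Isl1, a LIM factor of endocrine cells, read -4.05 ± 0.18 (SD, n = 4) in controls and met the background criterion on 0 of 4 mutant arrays, so it was at least 3.15-fold lower (limma adjusted p = 8.33e-04). Such a bound sets the control mean against the dim group's mean, in which an array counts with the lowest level well above background where its own probe is dimmer. Isl1 met the filter through the controls alone, so its p-value adds no separate support. Neurog3, which starts the endocrine programme and whose regulatory DNA drives Cre here, had a difference of 0.76 (SE 0.10, limma adjusted p = 0.055) and Pax4, a factor of early endocrine cells, one of 0.70 (limma adjusted p = 0.335). In both all mutants lay above all controls, as they did for 771 of the 25330 genes (3.04%). The next smallest p-values were those of Prox1, at -0.24, and Etv1, at -0.22, neither of which passed (limma adjusted p 0.821 for each).

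None of the 11 peptide maturation genes, which cut, sulfate and amidate prohormones, passed the limma test, and 1 had an unadjusted p under 0.05. Their median difference was 0.08. Pam makes the amide at the tail that cholecystokinin, gastrin and secretin all carry. It read -0.88, -0.41, -0.73 and -0.58 in controls 1 to 4 and 0.73, 0.71, 0.72 and -0.70 in mutants 1 to 4. Mutants 1 to 3 were thus close to each other and above all controls, while mutant 4 lay among the controls, as it did for Cckar. The difference of 1.02 (SE 0.32) had an unadjusted limma p of 0.0111 and an adjusted p of 0.821, and it passed in 1 of 19 alternatives. The prohormone convertases Pcsk1 and Pcsk5 differed by 0.11 and 0.14, the carboxypeptidase Cpd by 0.15 and the sulfotransferase Tpst1 by 0.15.

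Of 15 genes for releasing peptides and sensors of cells that make cholecystokinin, 12 were tested (not Casr, Ffar1 and Kcnj11), 1 was lower and the median difference was -0.02. That gene was Trpa1, an irritant-gated cation channel, with a control mean of -2.36 ± 0.18 and a mutant mean of -3.43 ± 0.16 (SD, n = 4 each). The difference was -1.07 (SE 0.13, limma adjusted p = 0.0302), near the threshold, and 9 of 19 alternatives kept the call. The sulfonylurea receptor Abcc8 and the fatty acid receptor Ffar4 each differed by -0.34, Ildr1, a lipoprotein receptor, by -0.15 and the zinc receptor Gpr39 by 0.23, and none of them passed (limma adjusted p 0.821 for each).

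None of 25 genes that carry the signal of the receptors inside the cell passed the limma test, none had an unadjusted p under 0.05, and the median difference was 0.06. The smallest p-values were those of the phospholipase Plcb2, at -0.31, the calcium release channel Itpr1, at -0.21, the arrestin Arrb1, at 0.24, and the kinase subunit Prkaca, at 0.23. Of 13 class B receptors related to Sctr, 11 were tested (not Ghrhr and Calcr), none passed or had an unadjusted p under 0.05, and the median difference was 0.06. Gipr, the GIP receptor, differed by -0.37 (SE 0.17), Crhr1 by 0.29, Vipr1 by 0.16 and Calcrl by -0.24. Every tested gene of these 2 lists differed by less than Cckar did in size.

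Among 5 peptides related to secretin, 2 were lower, and both fell more than Sct. Gcg, which encodes proglucagon, fell by 3.42 on the log2 scale (SE 0.14, limma adjusted p = 1.21e-05). Gip, which encodes the glucose-dependent insulinotropic peptide, was at least 210.4-fold lower (limma adjusted p = 4.79e-06), with 1 of 4 mutant arrays well above background. Gip met the filter only with the help of the controls, so its p-value adds no separate support. Ghrh, Adcyap1 and Vip, which are not confined to endocrine cells of the gut, differed by 0.20, 0.14 and 0.06 and did not pass (limma adjusted p 0.821 to 0.923), and the median over the 5 was 0.06.

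**Figure D4:**
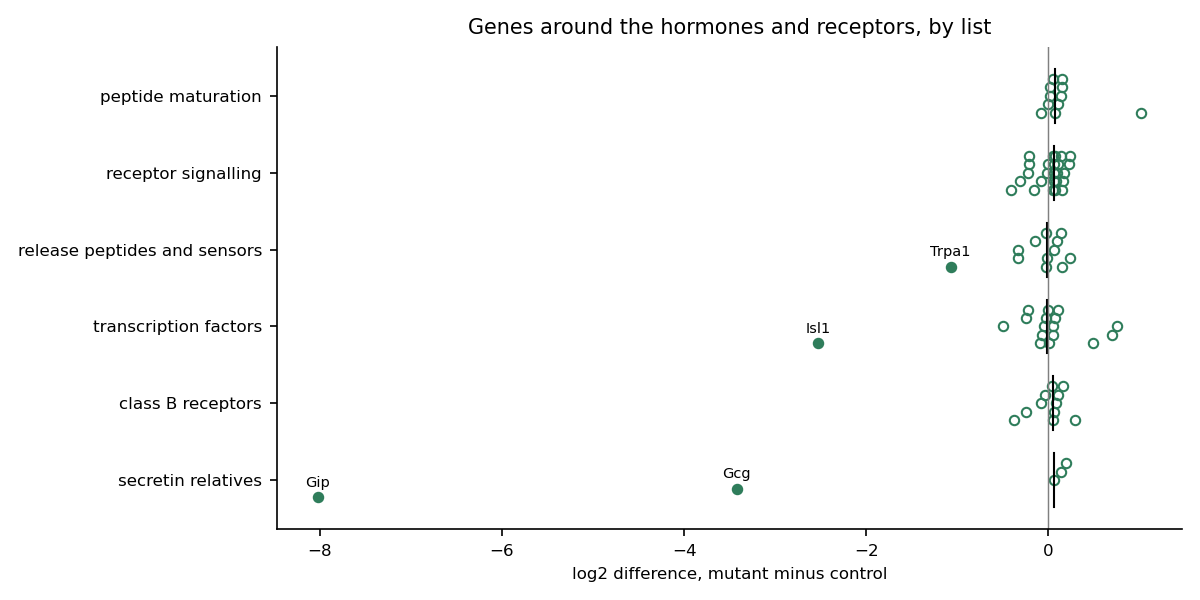
Log2 difference, mutant minus control, of tested genes in 6 lists, 1 row per list, filled and named where the adjusted p was under 0.05, with a black bar at the median of the list and 1 gene not shown. The named genes, Gip, Gcg, Isl1 and Trpa1, all lie below -1, and the fitted values of Gip and Isl1 stand where mutant arrays were not well above background.

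Markers of endocrine cells and gut regions were read beside Cck and Sct. Of 8 general endocrine markers, all tested, Scg2, a granin, was lower (-1.13, limma adjusted p = 0.0102), 6 of the 8 had a negative difference, and the median difference was -0.16. Scgn, a calcium-binding protein of endocrine cells, had a difference of -1.06 (SE 0.20), and the groups did not overlap. Its probe was well above background on 3 of 4 mutant arrays, and the gene did not pass (limma adjusted p = 0.239). Chga, the defining granin, had a difference of -0.27 (SE 0.14, limma adjusted p = 0.821). Their summed level was 73.2 to 75.3 times the 75th percentile in controls and 81.4, 70.3, 64.9 and 70.7 in mutants 1 to 4, so that mutants 2 to 4 were below every control and mutant 1, the array that stood apart, was above. Chgb and Cpe, with control means of 4.96 and 4.49, weighed most in this sum. The part of the endocrine markers in the Cck and Sct values was not tested. Cck and Sct cells lie mainly in the proximal gut. The proximal markers summed to 13.4 to 15.0 in controls and 12.3 to 15.5 in mutants, a sum carried by Onecut2 and Gata4. Of these 4 markers 3 were tested, none at an adjusted or unadjusted limma p under 0.05, with a median difference of 0.00. The 3 distal markers summed to 5.40 to 23.1 in controls and 38.4 to 89.7 in mutants, carried by Fabp6, the ileal bile acid binding protein (difference 2.33, SE 0.46, limma adjusted p = 0.294), while Osr2 differed by 0.02 and Slc10a2 by -0.32.

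Markers of other tissues differed with the groups or on 1 array. Of 13 acinar markers 9 were tested. None passed, and 8 had an unadjusted limma p under 0.05, all with higher mutant means. Cela2a, 1 of these 8, was well above background on all 4 mutant arrays and on 0 of 4 controls, and so met the filter through the mutants alone. Of the untested, Prss2 read 2.44 higher in the mutant mean, while Pnlip and Ptf1a had differences of -0.10 and -0.51 near background, and Amy2b was not among the names used here. Ptf1a, the defining acinar factor, was well above background on no array. Of 10 stomach markers 5 were tested and none passed (none had an unadjusted limma p under 0.05). On mutant 3 Tff2 stood at 2.89 and Gkn3 at 2.33, against -4.64 to -2.94 and -2.43 to -1.88 elsewhere. Gkn1, Pgc and Muc5ac, also tested, were no higher than -5.02, -2.94 and -3.54 on any mutant, and their groups overlapped. Gkn2, Atp4a, Atp4b, Cblif and Sox2 did not meet the filter. Markers of enterocytes, enteric neurons, smooth muscle, interstitial cells of Cajal and erythroid cells had no limma call, and 1 of them, Kit, had an unadjusted p under 0.05. Whether the share of distal gut, pancreas or stomach in the tissue bears on Cck or Sct was not tested. Without mutant 3 the Sct difference was -0.91 (SE 0.10, limma adjusted p = 0.0642) and that of Cck -2.46 (limma adjusted p = 0.0012).

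**Figure D5:**
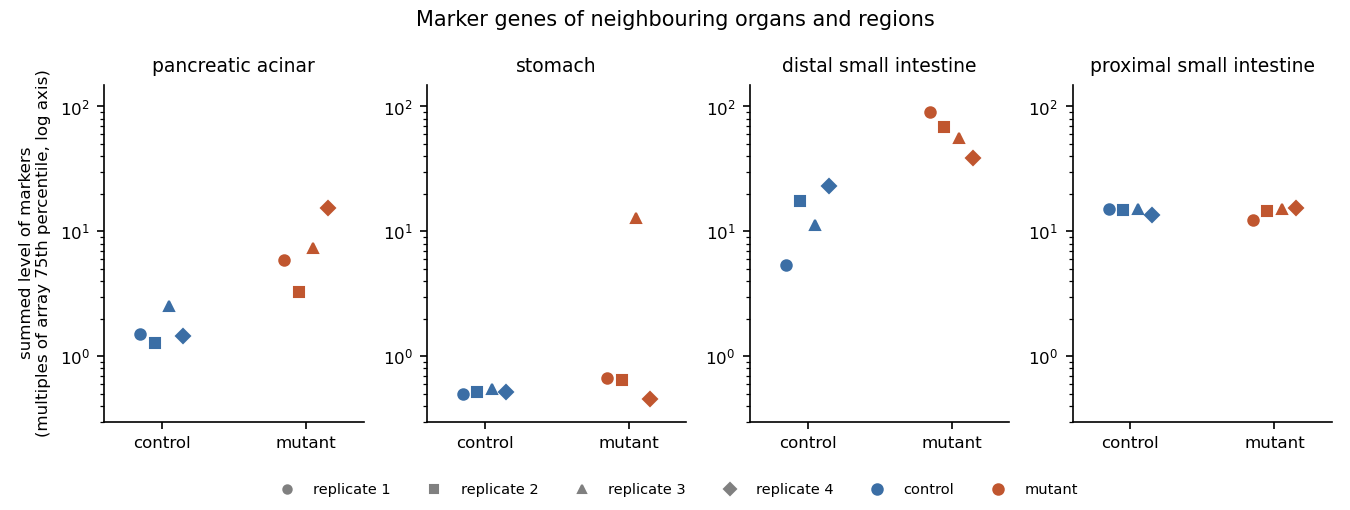
Summed level of the markers of 4 neighbouring organs or gut regions on each array, as multiples of the 75th percentile of the array on a log axis, with replicates as symbols. The distal sum (5.40 to 23.1 in controls, 38.4 to 89.7 in mutants), carried by Fabp6, is higher in every mutant. So is the acinar sum (1.28 to 2.55 in controls, 3.25 to 15.4 in mutants). Stomach markers stand out on mutant 3 at 12.7, carried by Tff2 and Gkn3, and proximal markers overlap.

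Cck and Sct had the same sign on both rows of the slide and against the fl/+ controls alone. On row 1, with controls 1 and 2 and mutants 1 and 2, Cck differed by -2.56 and Sct by -0.85. On row 2 Cck differed by -2.42 and Sct by -1.15. Against the 3 fl/+ controls only, Cck differed by -2.44 and Sct by -0.98. Gast differed by -0.25 on row 1 and 0.18 on row 2, and Cckar by 0.68 and 0.64. The signs of Cck, Sct and Cckar were thus the same in both rows, and those of Gast and Sctr were not.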

How the data were processed

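RNA of 8 small intestine samples was hybridised to 8 one-colour Agilent arrays on 1 slide read in 1 scan. The row on the slide was inferred from the name of each array's scan, and no sample label gives it. The authors deposited linear spot intensity values, read with Agilent Feature Extraction 10.10.1.1 per the file headers and the submitters' processing notes, with probe positions on mm9. A second deposited table holds linear intensity values, and no label states its processing. Its columns had equal quartiles and a rank correlation with each array's own median signal of 0.99997 to 0.99998, so its scale between arrays is unlike that of the scanner files. It lacked 7 of 62976 spots and served as an alternative.

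Here processed intensity was divided by its 75th percentile over the 59305 non-control spots of the array and put on the log2 scale. The 117 to 157 outlier spots per array were left out, and no non-control spot was saturated. Of 55681 probes, 35471 were well above background on at least 4 arrays, and 1 probe per gene, the brightest on average, was tested with limma 3.58.1 (lmFit, eBayes; R 4.3.3) with Benjamini-Hochberg adjustment over 25330 genes. Probes were named by accession (26582), symbol (2602) or older symbol (492) through RefSeq tables, or by the array files (26005). The exact permutation test compared within-array ratios. The fit was tested on simulated data.

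The 6 genes and all lists were chosen with earlier results of these data known. Named genes were every probe of the 6 genes, every list member that passed and up to 4 others per list with the smallest p. Pcsk1 was named besides, as were the genes with the highest r (5 for Cck and Sct, 3 for others). The promoter motifs were chosen after values were seen. Titles carry 8 distinct numbers, but the labels do not say that each is a separate embryo, so p-values measure the spread between these samples, which may be technical. The number of arrays limits the precision. Alternatives were background correction, scaling, filters, the deposited table, array weights, moderated trend, blocks and leaving out each array. Counts cover whole lists, and 1 gene that passed is not reported here. No exon annotation of mm9 was used.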

Additional observations from a re-analysis of the deposited data

Results flagged for a closer look

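One value stood apart from its group. The Cck level of mutant 1 was 2.16, against 1.80 to 1.83 in the other 3 mutants, and its gap to the nearest of them was 0.934 of the range of the group, above Dixon's 95% critical value for 4 samples. It lay below the lowest control, at 4.14. In all, 20 groups (10 probes in 2 groups) were examined, and chance flags about 1 in 20.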

How the results depend on the processing

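Under 20 alternatives Cck kept its direction and its call (-2.57 to -2.44, limma adjusted p 3.59e-06 to 0.00446). Sct kept its direction in all 20 and its call in 10. It missed with median scaling (-0.98, limma adjusted p = 0.0588) and with no filter on dim probes (-0.997, 0.0901). Leaving out 1 array gave -1.07 to -0.91, and 1 of 8 such fits passed. The replicate block gave Sct -0.997 (limma adjusted p = 0.227) and 7 genes in all. Same-numbered arrays did not deviate together (correlations -0.0929, 0.0565, -0.0691 and 0.0908), so the numbers were not read as pairs. Gast, never called, was 0.028 with normexp background correction and -0.21 to 0.15 with 1 array left out. Sctr was -0.23 to 0.0082 in those fits and Cckar 0.48 to 0.88. The number of genes called, 15, became 27 with normexp (19 lower, 8 higher), 23 with a trended robust fit, 42 with array weights and 9 to 20 with 1 array left out. It was 19 with the percentile taken over detected probes (15 lower, 4 higher). Of the 6 hormone and receptor genes, 1 was called with median scaling, with no filter and with the replicate block, and 1 to 2 with 1 array left out. Of the list genes 3 were called with a filter of all 8 arrays and with the replicate block, and 3 to 6 with 1 array left out. The Sct to Gast ratio was -1.06 with quantile normalisation (exact permutation p = 0.0571). With 1 array left out the ratios were not tested, with values of -1.59 to -1.43 for Cck to Sct, -2.60 to -2.26 for Cck to Gast and -1.18 to -0.71 for Sct to Gast. The causes of these changes were not tested. Signal over background limits Cckbr and the Sctr probe at position 1048.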
